A study of Mus musculus with 4 samples.

Results

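Chromatin accessibility at 9 adipokine genes was described from ATAC-seq peaks of mouse visceral adipose tissue. The genes were *Adipoq*, *Lep*, *Retn*, *Rbp4*, *Cfd*, *Nampt*, *Apln*, *Rarres2* and *Angptl4*, chosen by name from 21000 protein-coding genes with a curated RefSeq transcript. For each gene, a promoter was taken as 500 bp either side of a curated transcription start site on mm10, and a window ran from 50 kb before the first start site to 50 kb past the gene end. The 9 windows held 123 of the 147157 regions obtained by merging the peaks of all libraries.

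The series held 4 libraries in 2 groups of 2, each from a different CD-1 mouse, an outbred stock, sampled at 8 weeks of age. The control mice descended from dams injected with sesame oil. The BPA mice descended from dams that received bisphenol A, used in making plastics, at 50 mg/kg daily by injection from embryonic day 7.5 to 13.5, and were not themselves treated. Which generation after the exposed dams was sampled is given differently in the labels and in the study's text and was not settled here, and neither source gives the sex of the mice or a batch.

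In ATAC-seq a transposase cuts accessible DNA, so that a pile-up of reads marks an open promoter or enhancer. Adipokines are proteins that fat tissue releases into the circulation. Adiponectin, leptin and, in mice, resistin come chiefly from mature adipocytes, where their genes are activated with the adipocyte programme of PPARG and the C/EBP factors, whereas visfatin, apelin, chemerin and ANGPTL4 are made by many cell types. Chromatin was taken from whole tissue, so fewer nuclei of a cell type and a less open site in each nucleus cannot be told apart.

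The promoters differed in base composition, and 6 of them are printed, 5 because the peaks described below overlap them and that of *Cfd* as a CpG-poor promoter for comparison. RefSeq promoter sequences on GRCm38, the assembly that mm10 names, were matched for 7 of the 9 genes (all but *Rarres2* and *Angptl4*), giving 8 promoters, and cover 250 bases before and 50 after a start site. Capitals mark matches on either strand to 6 motifs. C/EBP factors bind TTGCGCAA and its relaxed form TTNCNNAA. The core promoter box is TATAAA. The E box is CACGTG, and it contains ACGTG, the core of hypoxia elements. PPARG with RXR binds a direct repeat of AGGTCA half-sites with 1 base between them.
Adipoq promoter, chr16:23146286-23146585, plus strand: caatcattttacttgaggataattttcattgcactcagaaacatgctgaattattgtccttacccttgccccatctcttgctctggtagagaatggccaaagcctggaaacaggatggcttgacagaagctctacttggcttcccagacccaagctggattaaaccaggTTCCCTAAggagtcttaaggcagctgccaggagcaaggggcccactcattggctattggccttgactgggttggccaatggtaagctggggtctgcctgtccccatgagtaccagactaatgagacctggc
Retn promoter, chr8:3655520-3655819, plus strand: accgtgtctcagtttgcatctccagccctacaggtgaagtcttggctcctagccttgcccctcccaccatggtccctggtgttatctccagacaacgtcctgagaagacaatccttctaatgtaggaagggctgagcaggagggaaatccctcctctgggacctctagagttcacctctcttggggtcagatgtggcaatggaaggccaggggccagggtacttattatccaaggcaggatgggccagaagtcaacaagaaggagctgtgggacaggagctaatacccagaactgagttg
Cfd promoter, chr10:79890603-79890902, plus strand: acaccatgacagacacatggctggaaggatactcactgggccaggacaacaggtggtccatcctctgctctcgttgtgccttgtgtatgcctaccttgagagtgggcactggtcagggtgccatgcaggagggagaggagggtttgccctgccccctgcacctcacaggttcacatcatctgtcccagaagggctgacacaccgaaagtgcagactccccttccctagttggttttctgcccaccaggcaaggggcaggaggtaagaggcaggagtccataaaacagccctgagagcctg
Lep promoter, chr6:29059971-29060270, plus strand: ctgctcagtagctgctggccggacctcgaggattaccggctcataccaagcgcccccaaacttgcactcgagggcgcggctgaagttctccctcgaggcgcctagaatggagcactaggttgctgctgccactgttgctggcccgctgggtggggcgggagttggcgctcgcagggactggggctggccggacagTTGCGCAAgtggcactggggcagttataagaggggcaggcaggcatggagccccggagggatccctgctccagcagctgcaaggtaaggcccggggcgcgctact
Rbp4 promoter, chr19:38124762-38125061, minus strand: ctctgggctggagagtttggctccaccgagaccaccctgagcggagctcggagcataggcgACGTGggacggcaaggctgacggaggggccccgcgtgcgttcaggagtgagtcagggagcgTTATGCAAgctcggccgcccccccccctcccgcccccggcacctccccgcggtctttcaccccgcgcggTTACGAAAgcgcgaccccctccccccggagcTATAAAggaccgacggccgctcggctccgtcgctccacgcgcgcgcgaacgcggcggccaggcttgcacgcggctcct
Nampt promoter, chr12:32820085-32820384, plus strand: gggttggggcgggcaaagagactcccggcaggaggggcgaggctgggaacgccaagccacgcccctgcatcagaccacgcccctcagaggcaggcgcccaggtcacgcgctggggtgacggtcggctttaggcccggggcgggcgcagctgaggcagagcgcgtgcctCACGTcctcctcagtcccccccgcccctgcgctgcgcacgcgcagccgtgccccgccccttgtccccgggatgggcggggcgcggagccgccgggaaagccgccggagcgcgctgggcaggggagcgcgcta
The *Adipoq* promoter held no CpG dinucleotide, with an observed over expected CpG ratio of 0. The ratio was 0.0916 for *Retn* and 0.0802 for *Cfd*, and these 3 promoters lay in the lowest tertile of 20315 coding promoters. *Lep* at 0.590 and *Apln* at 0.493 lay in the middle tertile. *Nampt* at 0.825 and the inner start site of *Rbp4* at 1.04 lay in the highest tertile, while the outer start site of *Rbp4* had 0.405. Over all coding promoters, a peak was present in all 4 libraries at 12.1% of the lowest, 65.5% of the middle and 90.7% of the highest tertile. *Adipoq* and *Retn* were thus CpG-poor promoters with a peak in every library, and *Cfd* was one without.

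The *Lep* promoter carried TTGCGCAA with its first base 55 bases before the start site, a sequence present in 0.231% of the 20315 promoters. TTNCNNAA was found in 4 of the 8 member promoters, against 36.9% of all promoters. TATAAA lay 28 bases before the inner start site of *Rbp4* and in no other member promoter, against 12.47% of all promoters. ACGTG was found at *Rbp4* and *Nampt*, against 21.2% of all promoters. CACGTG, held by 8.07% of all promoters, and the PPARG repeat, held by 0.0492%, were in none of the 8. These matches describe letters in a 300-base window only.

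The libraries differed in depth and in how strongly promoters stood out, which sets how the members can be compared. The lists held 82665 and 88911 peaks in the control libraries and 72375 and 98060 in the BPA libraries. Each list is judged against its own reads, so the main measure was the rank of a peak by its −log10 q-value (the deposited significance), given as a percent of the peaks of the same library. A rank of 1% is among the strongest sites, and a lower rank is called better. A second measure was the read pile-up at the summit, recovered from the deposited fold and p-value and divided by the pile-up of the median coding promoter with a peak in all 4 libraries. The lowest local background in a list, which scales with depth, was 2.85 and 2.70 reads in the control and 1.16 and 3.80 reads in the BPA libraries. Against that floor, the median coding promoter stood 20.3-fold and 21.1-fold high in the control libraries and 70.9-fold and 73.2-fold high in the BPA libraries. A pile-up over the floor was accordingly higher in both BPA libraries at 96.1% of 12166 coding promoters, which is why the second measure was taken relative to the median promoter. With 2 libraries in each group the exact permutation test has 0.333 as its smallest two-sided p, so no test between groups was run, and differences are described by whether the 2 values of each group overlap.

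Peaks at adipocyte markers were present in all libraries. Endothelial, leukocyte and, to a lesser degree, progenitor and fibroblast markers had more peaks in both BPA libraries than in either control library. Counts of the other marker types did not separate the groups. All 7 adipocyte markers, among them *Plin1* (lipid droplet coat), *Fabp4* (fatty acid carrier) and *Pparg*, had a promoter peak in every library. Over all coding genes a promoter peak was present at 62.6% and 61.4% in the control libraries and at 64.1% and 67.4% in the BPA libraries. Endothelial markers had one at 3 and 3 of 10 promoters in the control libraries and at 10 and 10 of 10 in the BPA libraries, with *Pecam1*, *Cdh5*, *Tie1*, *Emcn*, *Vwf* and *Erg* having none in either control library. Leukocyte markers had one at 2 and 2 of 7 in control and 4 and 4 of 7 in BPA, and those without a peak in any library included *Csf1r* and *Cd3e*. Progenitor and fibroblast markers had 4, 4, 5 and 5 of 5, mesothelial markers 2, 2, 2 and 1 of 3, epithelial markers 2, 0, 2 and 2 of 3, brown adipocyte markers 2, 3, 2 and 3 of 3, and hepatocyte markers none of 3, in the order control 1, control 2, BPA 1 and BPA 2. The part of these markers in any difference given below was not tested.

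A promoter peak was present in all 4 libraries for 7 of the 9 adipokine genes, against 57.9% of the 21000 coding genes. The count was 5 when the summit had to lie in the promoter, which left out *Adipoq* and *Angptl4*. It was also 5 with only peaks of a −log10 q-value of 5 or more, which left out *Lep* and *Retn*. Each library had a peak at 8 of the 9 promoters. These peaks were usually not among the strongest sites. The median rank of the 7 genes was 28.7% and 20.3% in control and 37.1% and 24.4% in BPA, whereas the median coding gene with a peak in all 4 libraries ranked at 8.46%, 9.77%, 8.44% and 5.94%. The group means for the 7 genes were 24.5% ± 5.92 (SD, n = 2) in control and 30.7% ± 9.01 (SD, n = 2) in BPA, a difference of 6.22 percentage points that is smaller than the spread between the BPA libraries. It became −0.14 points without BPA 1, −12.4 with only peaks of a −log10 q-value of 5 or more and −6.27 with the best 20000 peaks of each library, so its direction depended on these choices. The same difference over all coding genes was −1.93 points. The 2 groups' ranks did not overlap for *Retn*, better in both control libraries, and for *Angptl4*, better in both BPA libraries. Among all 12166 genes with a peak in every library, 18.7% were better in both control and 40.7% better in both BPA libraries, so 1 of 7 in each direction is no result about adipokines as a set.

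**Figure D1:**
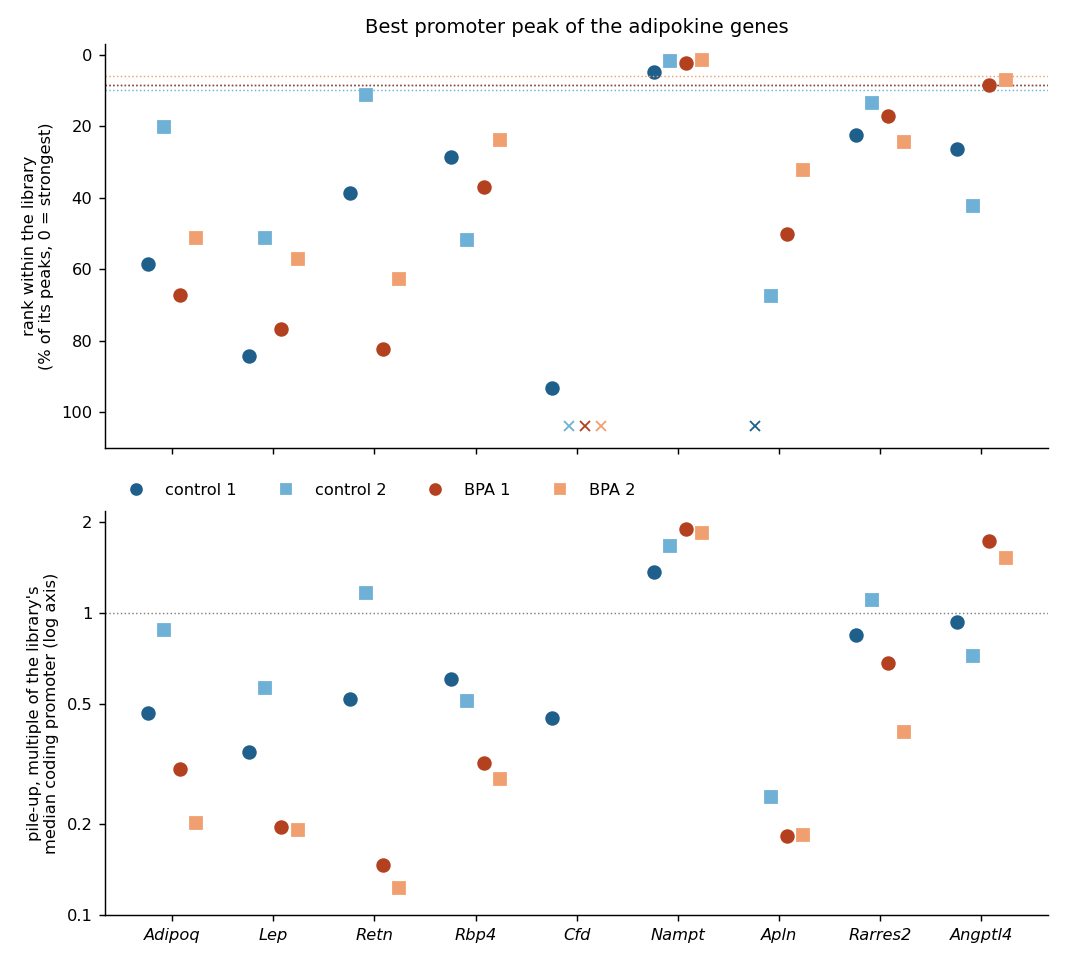
Best promoter peak of each adipokine gene by library. The upper panel gives its rank as a percent of the library's peaks (strongest at the top, crosses where no peak was called, dotted lines at the library's median coding gene), and the lower panel gives the summit pile-up as a multiple of the library's median coding promoter on a log axis. *Nampt* ranked within the best 5% in every library, *Retn* was lower in both BPA libraries on both scales, and *Angptl4* was higher in both.

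*Adipoq* encodes adiponectin, an insulin-sensitising hormone made by adipocytes. It lies on the plus strand of chr16:23146536-23157968 and has 1 start site. Its promoter peak ranked at 58.6% and 20.3% in the control libraries and at 67.2% and 51.2% in the BPA libraries. Control 2 was the best and the groups overlapped, since control 1 ranked behind BPA 2. The summit lay 327 and 160 bases before the start site in the control libraries. It lay 391 bases inside the gene in BPA 1, and in BPA 2 the call was a 2763-bp peak with its summit 1917 bases before the start, so the 4 calls do not mark 1 shared summit. The pile-up relative to the median promoter was 0.466, 0.877, 0.305 and 0.201, higher in both control libraries. The value of BPA 2 was read at its upstream summit. A second site lay upstream in the same merged region, with summits 1.98 kb before the start site in control 1 and BPA 1 and 1.96 kb before it in control 2, and it is this site that gave the summit of the wide peak of BPA 2. It ranked at 23.8% and 20.5% in the control libraries and at 69.4% in BPA 1, and the wide peak of BPA 2 ranked at 51.2%. At the upstream site both control libraries were thus better than both BPA libraries. At the start site BPA 2 had no summit of its own, so its rank there is not known. The overlap of the promoter ranks thus rests on the wide peak of BPA 2.

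*Lep* encodes leptin, the satiety hormone released in proportion to fat mass. The gene lies on the plus strand of chr6:29060221-29073876. Its promoter peak was weak in every library, ranking at 84.2%, 51.2%, 76.9% and 57.2% in the order control 1, control 2, BPA 1 and BPA 2. The groups overlapped, and the mean difference of −0.70 points was far below the SD of 23.4 points in control and 13.9 points in BPA. All 4 summits fell within 12 to 204 bases before the start site, that is inside the printed sequence that holds TTGCGCAA. The relative pile-up was 0.345 and 0.561 in control and 0.195 and 0.191 in BPA. It was thus higher in both control libraries on this scale, although over the library floor it was higher in both BPA libraries and by rank the groups overlapped.

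*Retn* encodes resistin, a cysteine-rich hormone that opposes insulin action in mice. On the plus strand it spans chr8:3655770-3659818. Its promoter peak ranked at 38.7% and 11.4% in the control libraries and at 82.4% and 62.7% in the BPA libraries. Both control libraries were better than both BPA libraries, by 47.5 points on average, with SDs of 19.3 points in control and 13.98 points in BPA. The solved pile-ups were 30 and 66 reads in control and 12 and 34 reads in BPA, and the relative pile-ups were 0.517 and 1.16 against 0.146 and 0.122. *Retn* was also 1 of the 61 promoters, 0.501% of 12166, whose pile-up over the library floor was higher in both control libraries, although control 1 at 10.5 and BPA 1 at 10.4 nearly met. The deposited folds over local background did overlap, at 3.86 and 5.51 in control and 4.08 and 3.996 in BPA. The summits lay 84 to 438 bases before the start site, and all but that of BPA 2, the farthest, fell in the CpG-poor sequence printed above.

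*Rbp4* encodes the retinol carrier of plasma, which adipocytes and liver both secrete. On the minus strand it spans chr19:38116620-38125321 and has 2 curated start sites. Its promoter peak ranked at 28.7%, 51.7%, 37.1% and 24.0%, with overlapping groups and the weakest call in control 2. The deposited folds were 4.25 and 3.52 in control and 6.09 and 6.17 in BPA. The relative pile-ups ran the other way, at 0.603 and 0.509 in control and 0.317 and 0.281 in BPA. The order at *Rbp4* therefore depended on whether the peak was set against its local background or against the other promoters of its library. The share of all genes with higher folds in both BPA libraries was not computed. Folds overlapped at *Retn*, but at its neighbour *Pet100* they were 10.1 and 9.86 in control and 15.1 and 13.6 in BPA. That promoter was better ranked in both control libraries, so folds, here and below, are not read as a direction of 1 gene.

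*Cfd* encodes complement factor D, also called adipsin, the serine protease that cleaves factor B in the alternative complement pathway and one of the most abundant products of mouse fat. On the plus strand it spans chr10:79890853-79892655, and its 3 curated transcripts share 1 start site. A promoter peak was called in control 1 only, at a rank of 93.2%, with a pile-up of 26 reads, a fold of 2.07 and its summit 341 bases inside the gene. No peak was called there in control 2, BPA 1 or BPA 2. A missing call says only that the site did not pass the q-value threshold of 0.05 in that library.

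*Nampt* encodes the rate-limiting enzyme of NAD salvage, which is also released as visfatin. The gene lies on the plus strand of chr12:32820335-32853369. Its promoter was the strongest of the 9 in every library, with ranks of 4.79%, 1.86%, 2.23% and 1.52%. The groups overlapped by rank, control 2 lying between the BPA libraries. The summits fell within 97 to 265 bases before the start site, and those of control 2, BPA 1 and BPA 2 fell in the CpG-rich sequence printed above. The relative pile-up was 1.36 and 1.67 in control and 1.89 and 1.84 in BPA, so it was above the median promoter in all libraries and somewhat higher in both BPA libraries.

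*Apln* encodes apelin, the peptide ligand of the receptor APLNR. On the minus strand it spans chrX:48025146-48034853. No promoter peak was called in control 1, and the peak ranked at 67.6% in control 2 and at 50.1% and 32.3% in the BPA libraries. The folds were 4.05, 6.48 and 6.67. Relative pile-ups of 0.246 in control 2 and of 0.183 in both BPA libraries did not follow that order. With promoters of 1000 bp either side, control 1 also had a peak, at a rank of 88.0%, and both BPA libraries were then better than both control libraries. The summit of that control 1 peak lay 991 bases inside the gene, against 99, 322 and 238 bases in the other libraries. That peak did not overlap the one of control 2, so the comparison mixes positions. The X chromosome held 2.19%, 2.15%, 1.71% and 1.90% of the peaks of the 4 libraries, and the Y chromosome 9, 5, 5 and 8 peaks.

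*Rarres2* encodes chemerin, a chemoattractant that signals through CMKLR1. The gene lies on the minus strand of chr6:48569696-48572802, where its 3 curated transcripts share 1 start site. Its promoter peak ranked at 22.4%, 13.5%, 17.1% and 24.4%, with overlapping groups. The summits lay 50, 55, 51 and 51 bases before the start site, the tightest agreement among the 9 genes. The relative pile-up was 0.845 and 1.11 in control and 0.683 and 0.403 in BPA, higher in both control libraries, while over the library floor it was higher in both BPA libraries.

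*Angptl4* encodes an inhibitor of lipoprotein lipase that is induced by fasting and by PPAR agonists. Its position is the minus strand of chr17:33774900-33781575. Its promoter peak ranked at 26.3% and 42.3% in the control libraries and at 8.34% and 7.07% in the BPA libraries, a mean difference of −26.6 points with SDs of 11.4 and 0.90 points. The groups did not overlap on any of the scales computed, which come from the same peaks and are not independent. Of 12166 coding genes, 40.7% were better in both BPA libraries by rank. On the relative pile-up 30.0% were higher in both, and over the library floor 96.1%. Pile-ups in reads are not adjusted for depth, and folds are not read as a direction, as given above. The folds were 3.32 and 3.35 in control and 5.60 and 4.98 in BPA, the pile-ups 54 and 41 against 142 and 422 reads, and the relative pile-ups 0.931 and 0.719 against 1.73 and 1.52. The local background beneath the peak was raised as well, at 5.46 and 4.27 times the library's lowest in control and 21.2 and 22.1 times in BPA, against 2.89 and 2.66 times and 5.70 and 6.90 times at the median coding promoter. In control 1 the best promoter call was a 2688-bp peak with its summit 2138 bases into the gene, so the control 1 values above were read there. The other 3 summits lay 82 to 211 bases inside the gene, and the comparison thus mixes 2 positions. *Angptl4* is transcribed in endothelial cells as well as adipocytes, and more endothelial marker promoters had a peak in the BPA libraries, as given above. Their part in this difference was not tested.

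On the relative pile-up, 5 of the 7 genes with a peak in all libraries (*Adipoq*, *Lep*, *Retn*, *Rbp4* and *Rarres2*) were higher in both control libraries and 2 (*Nampt* and *Angptl4*) in both BPA libraries. Over 12166 coding genes these shares were 35.4% and 30.0%. The median promoter stood farther above the floor in the BPA libraries. A peak of the same height over the floor therefore takes a lower multiple there. The shares over all coding genes were not taken at like peak strength, and the part of peak strength in this split was not tested. The median relative pile-up of the 7 genes was 0.603 and 0.877 in control and 0.317 and 0.281 in BPA, where the median coding gene is at 1 by construction. The 7 adipocyte markers split, with *Plin1*, *Cidec* and *Fabp4*, genes of lipid droplets and fatty acid binding, higher in both control libraries, and with the transcription factor genes *Pparg* and *Cebpa* and the lipase genes *Lipe* and *Pnpla2* higher in both BPA libraries. *Plin1*, for example, stood at 0.517, 0.982, 0.378 and 0.227, and *Cebpa* at 1.17, 1.44, 2.16 and 2.04. Adipocyte genes as a class therefore did not differ in 1 direction on this scale. By rank, 3 of the 7 markers (*Pparg*, *Cebpa* and *Pnpla2*) were better in both BPA libraries, against 40.7% of all coding genes. *Plin1*, *Cidec*, *Fabp4* and *Lipe* overlapped by rank.

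The members' 4 ranks were also set beside those of the other coding genes with a peak in all 4 libraries. The gene whose 4 ranks came nearest to those of *Nampt* was *Alpk1*, with a largest difference of 0.304 points in any library among 12165 genes. The nearest were *Cgas* for *Angptl4* at 1.61 points, *Aff2* for *Rbp4* at 3.00, *Rab7b* for *Rarres2* at 4.24, *Serpina3n* for *Lep* at 6.43 and *Tmem221* for *Retn* at 10.5. *Retn* thus had the least close match among these genes. Such distances were not computed for other genes, so they do not show how unusual a member is.

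The 9 windows held between 7 regions at *Rbp4* and 18 at *Angptl4*, with a median of 14. The median window of a coding gene held 11. The median count of regions with a peak in all 4 libraries was 7 in these windows and 4 in those of coding genes. Of the 123 regions, 61 (49.6%) had a peak in all 4 libraries, against 26.3% of all merged regions. Another 29 (23.6%) were called in 1 library, against 39.5%. All merged regions include those far from genes, so these genome shares are not a like comparison for windows around genes. By the position of their strongest summit, 29 regions lay in a promoter of any gene, 7 in an exon, 22 in an intron and 65 between genes. For 51 regions the nearest curated start site was that of the adipokine gene itself, 14 of them at *Apln* and 12 at *Lep*.

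**Figure D2:**
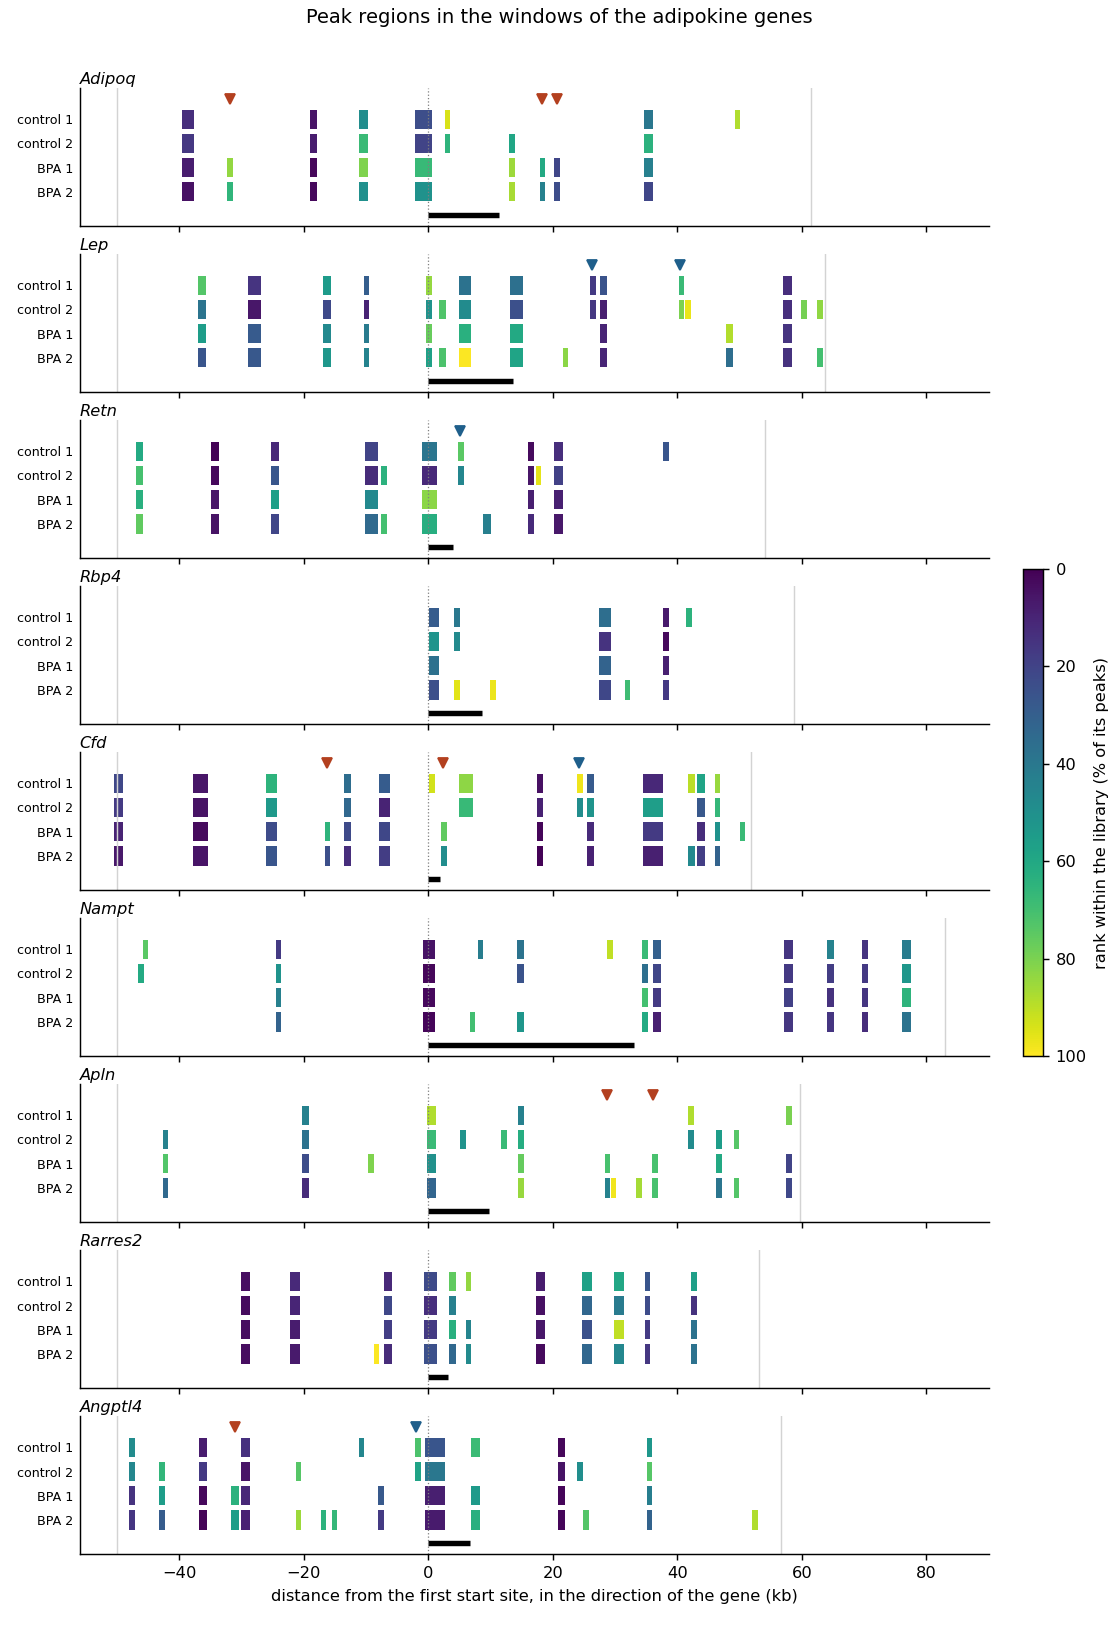
Peak regions around each adipokine gene, with distance from the first start site in kb in the direction of the gene on the horizontal axis and 1 row per library. Each bar is a merged region coloured by the rank of its best peak in that library (dark is strong), black lines are the genes, grey lines the window ends, and triangles mark the 8 BPA-specific (red) and 5 control-specific (blue) regions.

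Regions found in both libraries of 1 group and in neither of the other were a minority. A region was called reproducible when peaks of both libraries of a group shared at least 50% of both lengths, and specific when no peak of the other group overlapped it. In the windows, 5 of 55 reproducible control regions (9.09%) were control-specific and 8 of 58 reproducible BPA regions (13.8%) were BPA-specific. Over the genome, which is not limited to windows around genes, these shares were 11.6% and 19.9%. Both shares in the windows lay below them, which was not tested.

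The strongest specific regions lay downstream of *Adipoq* and *Lep* and are printed for 100 bases either side of the summit. Capitals mark TTNCNNAA on either strand, the only one of the motifs present in them.
Adipoq downstream region, chr16:23167170-23167370, plus strand: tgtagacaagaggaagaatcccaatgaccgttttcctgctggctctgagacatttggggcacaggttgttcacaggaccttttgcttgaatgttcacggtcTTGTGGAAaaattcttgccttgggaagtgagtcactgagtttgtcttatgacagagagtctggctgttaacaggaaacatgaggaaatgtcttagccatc
Lep downstream region, chr6:29086473-29086673, plus strand: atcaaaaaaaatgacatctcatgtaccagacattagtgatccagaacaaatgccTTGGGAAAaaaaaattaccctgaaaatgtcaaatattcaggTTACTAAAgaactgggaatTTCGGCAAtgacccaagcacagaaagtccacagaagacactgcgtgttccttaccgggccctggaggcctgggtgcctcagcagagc
The *Adipoq* region, at chr16:23166715-23167589, lay between genes with its summit 20.7 kb past the *Adipoq* start site. It ranked at 20.8% in BPA 1 and 23.1% in BPA 2, with folds of 8.18 and 6.29, and had no peak in either control library. The nearest start site was that of *C730014E05Rik*, 8010 bases away. A weaker BPA-specific region lay 18.1 kb past the start site (60.5% and 43.7%), and another 31.9 kb before it in an exon of *Rfc4*, which encodes a subunit of the DNA clamp loader (83.9% and 65.5%). The *Adipoq* window thus held the most BPA-specific regions, 3 of its 7 reproducible BPA regions, and none specific to control. Over the genome 19.9% of reproducible BPA regions were BPA-specific, and the difference was not tested. For all 3 the nearest start site was that of another gene. A weak intronic region 3.2 kb past the *Adipoq* start site was called in both control libraries (93.8% and 64.9%) and in neither BPA library. It did not meet the overlap rule and was not counted.

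The *Lep* region, at chr6:29086201-29086680, lay between genes with its summit 26.4 kb past the *Lep* start site, the nearest of any gene. It ranked at 17.1% in control 1 and 16.2% in control 2, with folds of 4.93 and 5.46, and had no peak in either BPA library. A region 28.3 kb past the start site, its neighbour, had a peak in all 4 libraries at 25.5%, 8.48%, 10.1% and 10.2% and was not specific to either group. A second control-specific region lay 40.4 kb past the start site, at 67.9% and 80.3%.

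Of the other control-specific regions, the one at *Retn* lay 5.1 kb past its start site, just beyond the gene end, at ranks of 74.4% and 45.8%. The one at *Angptl4* lay 2.0 kb before its start site (71.7% and 58.1%), and the one in the *Cfd* window lay in an intron of *R3hdm4* (97.3% and 48.6%). Of the other BPA-specific regions, 2 lay 28.7 and 36.2 kb past the *Apln* start site, between genes and nearest to *Apln*. They ranked at 71.0% and 44.5%, and at 70.7% and 71.0%. One lay 2.1 kb past the *Cfd* start site, close behind the gene end (75.7% and 48.5%), and 1 in the promoter of *Plppr3* in the same window (65.2% and 24.1%). The last lay in an intron of *Kank3* in the *Angptl4* window (63.9% and 55.2%). Apart from the printed pair, every specific region ranked at 60.5% or worse in at least 1 of its libraries.

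Some windows held shared regions that differed mostly in 1 direction, which was not tested. Of the 61 regions with a peak in all 4 libraries, 12 (19.7%) were better ranked in both control libraries and 22 (36.1%) in both BPA libraries, against 27.5% and 27.7% of the 38725 such regions in the genome. All 5 non-overlapping regions of the *Lep* window and 4 of the 5 of the *Retn* window were better in both control libraries. All 7 of the *Cfd* window, all 5 of the *Angptl4* window, all 3 of the *Rarres2* window and both of the *Nampt* window were better in both BPA libraries. *Adipoq* had 1 and 2, *Apln* 1 and 2, and *Rbp4* 1 and 0 in the control and BPA directions. Own promoter regions are among these counts, for *Retn* and *Adipoq* in the control direction and for *Apln* and *Angptl4* in the BPA direction. Those of the *Retn* window in the control direction also include the promoters of *Pet100* and *Fcor*.

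**Figure D3:**
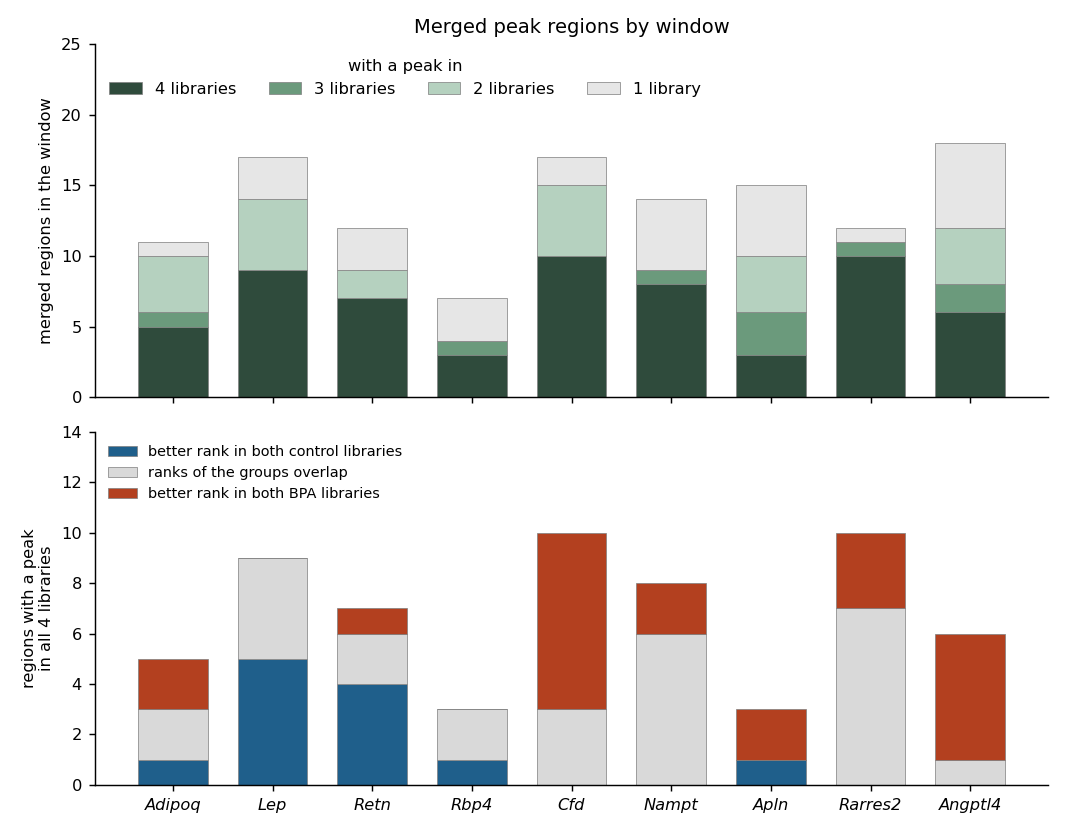
Merged regions in the window of each adipokine gene, as counts. The upper panel stacks them by the number of libraries with a peak, and the lower panel stacks those found in all 4 libraries by whether both control libraries (blue), both BPA libraries (red) or neither group (grey) ranked better. *Lep* and *Retn* hold 9 of the 12 blue regions, and *Cfd* and *Angptl4* hold 12 of the 22 red ones, own promoter regions included.

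In the *Lep* window the regions better ranked in both control libraries lay 28.7 kb and 10.1 kb before the start site, 5.3 kb past it in an intron of *Lep*, and 13.8 and 57.4 kb past it. The intronic region stood at 37.6% and 47.8% in control and at 63.3% and 99.6% in BPA, and the one 10.1 kb upstream at 29.6% and 9.58% against 41.1% and 44.8%. The one 57.4 kb downstream, the best shared site of the window outside the promoter, differed little, at 13.2% and 13.5% against 14.9% and 14.4%. At *Retn* the region 9.7 kb before the start site, the nearest shared site to the promoter, stood at 20.1% and 12.2% in control and at 47.1% and 34.2% in BPA. It went the same way as the *Retn* promoter.

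In the *Angptl4* window, the gene's own promoter region was 1 of the 5 better ranked in both BPA libraries. Another was an exonic site of *Kank3*, 36.0 kb before the *Angptl4* start site and 7004 bases from the start site of *Rps28*, at 7.71% and 16.6% in control and 1.96% and 1.14% in BPA. A region 7.4 kb before the *Angptl4* start site was called in both BPA libraries (27.6% and 16.8%) and in neither control library, but its 2 peaks shared less than 50% of their lengths and it was not counted as specific. The median local background of all peaks in this window was 2.34 and 2.16 times the library's lowest in control and 8.26 and 5.56 times in BPA. In the *Cfd* window it was 2.64 and 2.81 against 5.08 and 6.07 times. Most shared regions of both windows lay in or near other genes, such as the promoters of *Med16*, a Mediator subunit, at 4.12%, 9.25%, 1.41% and 0.603%, and of *Kiss1r*, the kisspeptin receptor, at 28.3%, 51.7%, 12.0% and 9.31%.

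The best-ranked shared regions outside the members' own promoters were mostly promoters of neighbours. They were the promoters of *Rfc4* for *Adipoq*, *Pet100* (a cytochrome oxidase assembly factor) for *Retn*, *Ptbp1* (a splicing regulator) for *Cfd*, *Zfp775* for *Rarres2* and *Rab11b* (an endosome recycling GTPase) for *Angptl4*, with the *Pet100* promoter at 0.507%, 1.96%, 5.49% and 4.84%. Distal sites held this place in the other windows. For *Rbp4* it was a region 38.0 kb past the start site and 9774 bases from the start of *Ffar4*, a fatty acid receptor gene, at 6.73%, 2.09%, 8.74% and 16.5%. For *Nampt* it was a region 70.3 kb past the start site, at 15.03%, 16.5%, 15.5% and 12.8%, and for *Apln* one 19.8 kb before the start site, at 43.7%, 37.7%, 23.3% and 12.4%. At *Rbp4* and *Lep* the distal site ranked better than the gene's own promoter in every library, and at *Nampt* the promoter ranked better in every library.

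Sequence around the summits of the 123 regions was counted for the same motifs, over 201 bases each. ACGTG was found in 25 regions (20.3%), against 10.4% of all merged regions, and CACGTG in 8 (6.50%), against 3.26%. TTNCNNAA was found in 42 (34.1%), against 43.3%, and TTGCGCAA in 1. The ACGTG count includes each CACGTG. All merged regions include those far from genes, so these shares are not a like comparison for windows around genes. Of the 123 regions, 29 (23.6%) had their strongest summit in a promoter of any gene. Over all coding promoters, read over a longer stretch, ACGTG was held by 21.2%, CACGTG by 8.07% and TTNCNNAA by 36.9%. The part of promoters in the window shares was not tested.

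The receptors and pathway partners of the adipokines were examined as a list of 38 genes. A promoter peak was found at 24 and 25 of them in control and at 28 and 30 in BPA, at 23 in all 4 libraries and at 7 in none. The shares of all coding genes given above also ran higher in the BPA libraries. Of the 23, 4 were better ranked in both control and 11 in both BPA libraries, shares to be read against 18.7% and 40.7% of all coding genes. On the relative pile-up 7 of the 23 were higher in both control and 7 in both BPA libraries. *Masp1*, a protease of the lectin complement pathway, had a peak in both control libraries only (75.9% and 59.8%). It was the 1 such partner gene, and 4, named below, had a peak in both BPA libraries only. The share of all coding genes with a peak in 1 group only was not computed. These counts are therefore not read as a result about the partners.

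Among receptors, both adiponectin receptor genes had a peak in every library. *Adipor1* ranked at 4.10% and 4.34% in control and 1.496% and 1.42% in BPA, and *Adipor2* at 7.26%, 7.49%, 8.32% and 4.62%. The leptin receptor gene *Lepr* and the RBP4 receptor gene *Stra6* had none in any library. *Cmklr1*, the chemerin receptor, stood at 42.1% and 40.2% in control and 12.6% and 12.7% in BPA. The apelin receptor gene *Aplnr*, which endothelial cells express, had a peak in both BPA libraries only (49.2% and 25.5%), as did *Gpihbp1*, which anchors lipoprotein lipase to capillary endothelium (58.5% and 41.7%), *C3ar1*, the C3a receptor of myeloid cells (57.6% and 28.0%), and *Retnla*, a resistin-like gene of macrophages and adipose tissue (64.1% and 84.7%). More endothelial and leukocyte marker promoters had a peak in the same libraries, and their part was not tested.

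**Figure D4:**
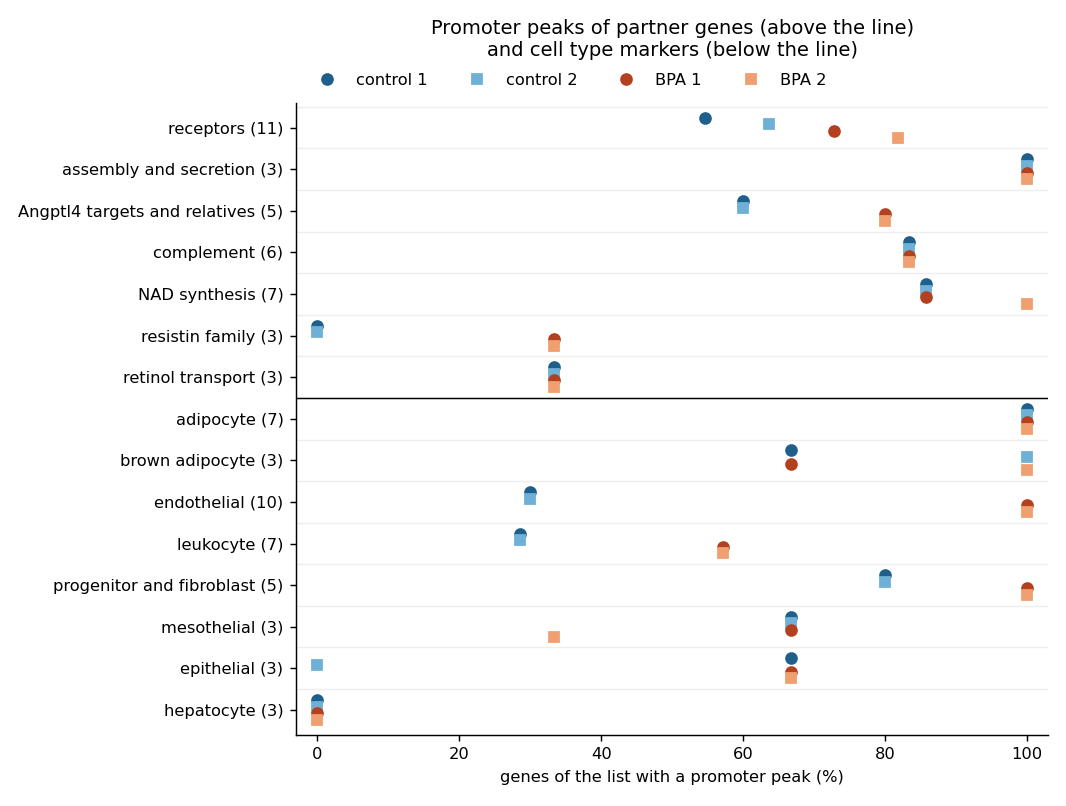
Percent of the genes in each partner list (above the line) and cell type marker list (below the line) with a promoter peak, by library, with the number of genes in parentheses. Adipocyte markers stand at 100% in all 4 libraries, and endothelial markers at 30% in both control and 100% in both BPA libraries.

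*Lpl*, the lipase that ANGPTL4 inhibits, ranked at 33.2% and 25.8% in control and 17.9% and 10.5% in BPA. Its relative pile-ups overlapped, at 0.793 and 1.05 in control and 0.829 and 0.950 in BPA, unlike those of *Angptl4*. *Angptl8*, a relative acting on the same enzyme, stood at 55.2%, 22.8%, 24.1% and 27.9%, with overlapping groups. Of the complement genes that act with factor D, *C3* stood at 30.9% and 17.5% in control and 70.8% and 42.9% in BPA, and *Cfb* at 29.5% and 37.1% in control and 26.3% and 17.2% in BPA. The relative pile-up of *Cfb* ran the other way, at 0.534 and 0.509 in control and 0.439 and 0.381 in BPA. Among genes of adiponectin assembly, *Ero1a* was better in both BPA libraries (6.29% and 7.36% against 2.12% and 0.751%), whereas *Erp44* and *Gstk1* were better in both control libraries (2.97% and 1.30% against 8.55% and 9.58% for *Gstk1*), although *Erp44* overlapped on the relative pile-up. Of the 7 NAD genes 6 had a peak in all libraries, and *Nmnat1*, *Nmnat3*, *Naprt* and *Nadsyn1* were better in both BPA libraries, while *Nampt* itself overlapped by rank.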

How the data were processed

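ATAC-seq (Omni-ATAC) libraries of visceral adipose tissue from 2 control and 2 BPA mice were analysed from the deposited peak lists, 1 per library. The authors trimmed reads with Trim Galore, mapped them to mm10 with Bowtie2 2.3.5.1, kept uniquely mapped reads, removed PCR duplicates with SAMtools and called peaks on each library with MACS2 2.2.7.1, without pooling. The deposited score, fold ratio over local background, −log10 p-value and −log10 q-value of each peak are the authors' own. The lowest −log10 q-value of each list was between 1.30 and 1.31. The list of BPA 2 is named with another replicate number than its label.

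Peaks were ranked by −log10 q-value within each library. Read totals are not in these lists, so pile-up and local background at each summit were solved from fold and p-value, and the p-values recomputed from them differed by a relative 1e-04 at most for 100% of peaks. In a test on simulated data 100% of 19965 pile-ups came back. Peaks of all libraries were merged at an overlap of 1 bp. Promoters came from 45756 curated RefSeq transcripts, and all peaks lay inside GRCm38 chromosome lengths. Groups followed the treatment label. Replicates measure the spread between these mice only. Python 3.11.15, numpy 2.4.6, pandas 2.3.3 and scipy 1.17.1 were used.

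The members, partner genes and markers were chosen with earlier results of these data known. Named were all 9 members, every group-specific region, for each member the shared region with the best worst rank outside its promoter, the most similar gene (1 such gene and 1 marker are not reported by name here), and partner genes whose presence differed between groups plus up to 4 examples per role. Regions of the *Lep*, *Retn*, *Cfd* and *Angptl4* windows beyond these, further marker genes and the relative pile-up were added after values were seen. Alternatives used a stricter −log10 q-value (5 or more), the best 20000 peaks, other promoter and window sizes, summits in the promoter, rank by fold, only regions nearest to the member, other overlaps, each library left out and, chosen after seeing the data, rank by pile-up and rank among coding promoters.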

Additional observations from a re-analysis of the deposited data

How the results depend on the processing

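Of 55 values of the 6 summary results under an alternative, 34 kept within 1.5 times a count or within the replicate SD, and 21 moved, and of 66 values of single rank differences 59 kept within the SD. The cause of a move was not tested except where the alternative counts fewer peaks or a different length by construction. The difference of the members' median rank, 6.22 points, became −12.4 with the stricter −log10 q-value (5 or more) and −6.27 with the best 20000 peaks, where 1 member (*Nampt*) had a peak in all 4 libraries. It ran from −0.14 (without BPA 1) to 12.6 (without BPA 2), so its direction is not settled. Members with a promoter peak in all libraries numbered 7 to 8 with a library left out and 8 with promoters of 1000 bp either side. They numbered 5 with the stricter q-value and 5 when the summit had to lie in the promoter. The 123 window regions became 50 with the best 20000 peaks, 78 with windows of 25 kb, 216 with 100 kb and 51 when nearest to the member, and 115 to 121 with a library left out. The 61 shared ones became 20, 38, 99 and 19 under the same settings and 61 to 65. BPA-specific regions, 8 as reported, numbered 12 with the stricter q-value, 6 with the best 20000 peaks, 5 with 25 kb, 16 with 100 kb, 3 when nearest to the member, 10 with an overlap of 1 bp, 2 with 80% and 11 without either control library. Control-specific regions, 5 as reported, numbered 2 with the stricter q-value, 3 with the best 20000 peaks, 3 when nearest to the member, 8 with an overlap of 1 bp, 3 with 80%, and 5 (without BPA 1) to 8 (without BPA 2). A specific count cannot be had without a library of its own group. *Retn* stayed better in both control libraries wherever it had a peak in all 4, by 27.6 points when ranked among coding promoters and by 34.3 when ranked by fold, and lost that comparison with the stricter q-value and with the best 20000 peaks. *Angptl4* stayed better in both BPA libraries, with differences of −11.8 points when ranked by pile-up and −45.2 with the stricter q-value, and could not be compared when the summit had to lie in the promoter or with the best 20000 peaks. No paired analysis was possible because the labels give no pairing of the mice beyond a replicate number and no value comes from a test. Depth limits the lists most in BPA 1, where the median pile-up was 19 reads against 22, 23 and 38 in the others.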

Other observations

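Smaller sites within the members' own promoter regions were also called. *Angptl4* had a second site 2.08 to 2.14 kb inside the gene in the control libraries, at 39.6% in control 2 and as the summit of the wide peak of control 1, while in BPA 1 and BPA 2 peaks of 2767 and 3079 bp covered both positions. *Rarres2* had a weak second peak 1.33 kb inside the gene in control 2 only, at 90.5%. In the *Nampt* window the 4 shared regions between 57.8 and 77.3 kb past the start site lay between genes, and those 57.8 and 70.3 kb away ranked between 12.8% and 19.1% in all 4 libraries. The brown adipocyte gene *Dio2*, which encodes the enzyme that activates thyroid hormone, ranked at 16.8% and 16.9% in control and at 57.6% and 41.9% in BPA, and *Ucp1*, the uncoupling protein of brown fat, had a peak in control 2 (85.7%) and BPA 2 (67.1%) only.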
